A study of Glycine max with 8 samples.

Results

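The wild-type (WT) soybean leaf is described here from 4 RNA sequencing libraries of the 8 in the series, those whose titles name the WT line. The plants were Glycine max, grown with sufficient phosphorus, and mature leaves were taken at R6, the full-seed stage of reproductive growth. The cultivar, the plant age in days and the time of day of harvest are not given in the labels, and neither is whether the 4 libraries came from separate plants, so the spread between them may be technical. Within these libraries, the 200 loci with the highest mean FPKM (fragments by kilobase of gene length, with the depth of the library divided out) were taken from 31785 listed loci, that is 0.629% of them. The mean FPKM chose these 200, so that their high level is a description and not a finding. The 4 libraries form 1 group, and no test between groups was made.

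At the full-seed stage a soybean leaf is a source organ, which exports sugars to the filling pods and begins to hand over nitrogen from its proteins. Mature green leaves are known for an uneven messenger RNA pool, in which a small set of nuclear genes for photosynthesis and its upkeep takes a large part. The files do not pair the locus IDs with gene names, and the RefSeq gene table used here holds none of these IDs. No name or function is therefore given to any locus, the leaf label could not be checked against marker genes, and the sequences of the loci are not shown. Chromosomes were read from the IDs, which carry the annotation suffix Wm82.a4.v1.

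FPKM values had steps of 1 read at each locus, which let whole reads and the length used for each locus be recovered. The listed loci held 18785836 to 19175792 reads per library, and these made up 99.7% of the total by which the authors had divided in each of the 4. Library depth thus differed little. A library deposited again would differ from its copy by no more than counting noise. The chi-square of their reads over its degrees of freedom would then be near 1 or below. Over at least 31520 loci this ratio lay between 21.3 and 79.5 for the 6 pairs, so each library was counted once; the values say nothing on whether the plants were separate.

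The abundance of listed loci ran over several orders of magnitude around a modest centre. The median locus had a mean of 6.15 FPKM, and the middle part of the list, from the 25th to the 75th percentile, ran from 2.11 to 15.8 FPKM. The 1st percentile was 0.198 FPKM and the 99th 180 FPKM, a 913-fold range, or 2.96 on the log10 scale. The extremes were 0.00733 FPKM, the smallest mean above 0, at Glyma.14G130800.Wm82.a4.v1, and 3393 FPKM at Glyma.06G177600.Wm82.a4.v1, which are 5.67 apart on the log10 scale. The top locus stood 552-fold above the median locus, and the last of the 200 stood 37.4-fold above it.

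Most listed loci were low, and most of the summed FPKM came from the loci of intermediate level. Means of 1 to 10 FPKM were seen at 15977 loci, 50.3% of the list, which held 12.1% ± 0.388 of summed FPKM (SD, n = 4). Means of 10 to 100 FPKM were seen at 10900 loci, 34.3% of the list, and these held 51.6% ± 0.866. A further 789 loci had 100 to 1000 FPKM and held 27.8% ± 0.584, and 27 loci had a mean of 1000 FPKM or more and held 8.10% ± 0.654. Below 1 FPKM were 4000 loci at 0.1 to 1 FPKM, with 0.395% ± 0.0121 of the sum, and 92 loci under 0.1 FPKM. Only 10 listed loci were at 0 reads throughout the 4 libraries, and 31553 had at least 1 read in all 4. Loci outside the list were not seen, so the range, the median and these counts describe the listed loci and not all genes. At 1 FPKM or more, 25434 loci were found in every WT library and 29066 in at least 1.

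**Figure D1:**
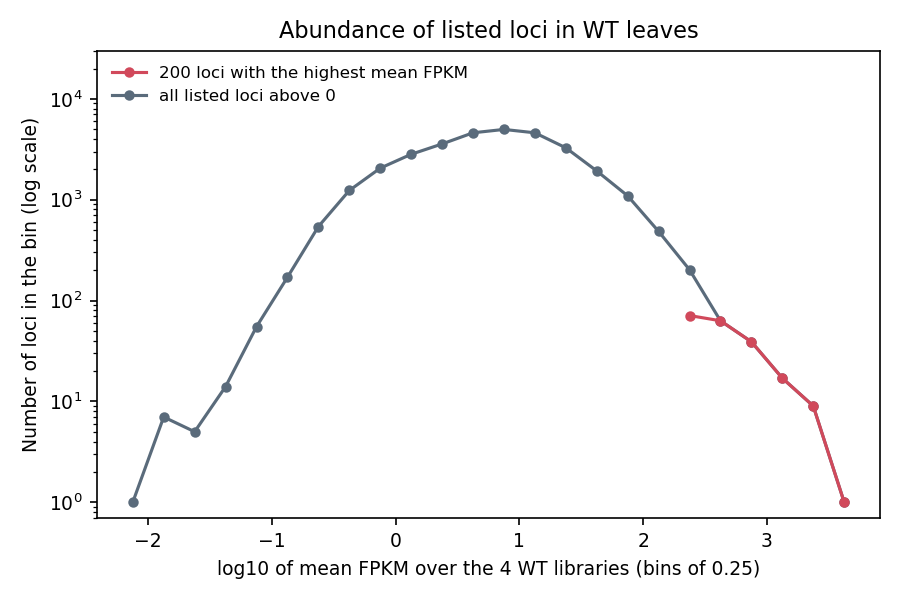
Number of loci (log scale) by log10 of the mean FPKM over the 4 WT libraries, in bins of 0.25. The red points are the 200 loci with the highest mean and the grey points are all listed loci above 0; the red points start at 230 FPKM, in the upper tail of a distribution centred on 6.15 FPKM.

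The 200 loci held 20.5% ± 1.04 of summed FPKM (SD, n = 4). Their share was 21.9%, 20.6%, 20.2% and 19.4% in WT replicates 1 to 4, so that replicate 1 was the highest and replicate 4 the lowest. The share built up steeply at first. The single top locus held 0.584% ± 0.0388, the 10 highest held 4.12% ± 0.251, the 25 highest 7.73% ± 0.671, the 50 highest 11.2% ± 0.953 and the 100 highest 15.6% ± 0.908. Beyond the 200, the 500 highest held 29.5% ± 1.12 and the 1000 highest 38.9% ± 1.20. Counted within each library, 50% of summed FPKM was held by 1681, 1903, 1929 and 1954 loci in replicates 1 to 4, and 90% by 12677, 13194, 13260 and 13169 loci. Replicate 1 was thus the most concentrated of the 4 libraries by both counts.

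**Figure D2:**
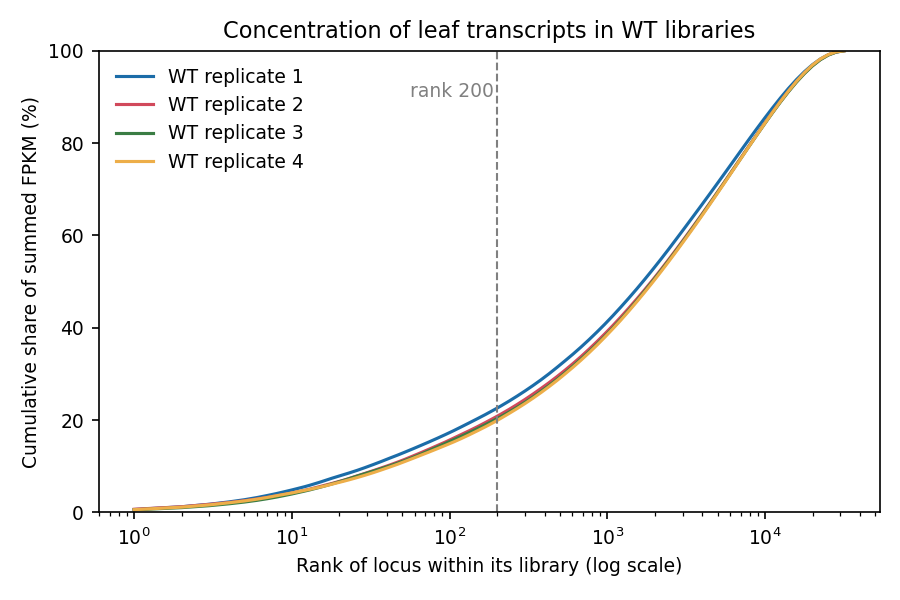
Cumulative share of summed FPKM (%) against the rank of the locus within its own library (log scale), with 1 line for each WT library. Over most of the range the line of replicate 1 runs above the other 3, which nearly coincide, and at rank 200 the lines lie between 19.9% and 22.6%.

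By reads, without the division by length, the same 200 loci took less: 14.9% ± 0.581 of the reads of listed loci (SD, n = 4), with 15.7%, 14.9%, 14.8% and 14.3% in replicates 1 to 4. The 200 loci were short. Their median length was 1260 bases (interquartile range 881.5 to 1794), against 1869 bases (1264 to 2826) for all listed loci. Lengths of 1000 bases or less were found at 33.5% of the 200 and at 15.0% of all listed loci, and lengths of 2000 bases or more at 17.5% of the 200 and at 45.1% of all. Within the 200, length and mean FPKM had a Spearman rho of −0.20, and across all listed loci the rho was −0.18. FPKM divides by length, so the 2 measures share it, and loci are not independent replicates. Of the 200 loci with the most reads, 140 were among the 200 by FPKM, and those with the most reads had a median length of 1932.5 bases.

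Several of the most abundant loci by FPKM were very short. Lengths of 300 bases or less were found at 10 of the 200 loci (5% against 1.40% of all listed loci). Glyma.18G180800.Wm82.a4.v1 on chromosome 18, 168 bases long, had 2772, 3013, 2774 and 3143 FPKM in replicates 1 to 4 and was at rank 2 by the mean. The shortest was Glyma.17G253066.Wm82.a4.v1 on chromosome 17, at 96 bases, with 285, 513, 256 and 310 FPKM; in 1 library it had 464 reads, the fewest of any of the 200. The longest was Glyma.15G177800.Wm82.a4.v1 on chromosome 15, at 4589 bases, with 676, 616, 694 and 693 FPKM. Short lengths therefore raise the FPKM that a given number of reads gives, and the rank of such loci rests on the length the authors used. The most reads belonged to Glyma.20G141600.Wm82.a4.v1 on chromosome 20, with a mean of 63347 reads per library; it was 1586 bases long and at rank 7 by FPKM.

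The top of the list held loci of steady level next to loci that changed severalfold between libraries. Glyma.06G177600.Wm82.a4.v1 on chromosome 6 had 3756, 3152, 3245 and 3421 FPKM in replicates 1 to 4 and was first in replicates 1, 3 and 4. In replicate 2 the first place went to Glyma.16G049000.Wm82.a4.v1 on chromosome 16, with 1923, 3972, 2042 and 2618 FPKM. Glyma.15G062500.Wm82.a4.v1 on chromosome 15, rank 4 by the mean, had 3013, 2313, 2451 and 2180 FPKM. Replicate 1 was the highest library at Glyma.06G177600.Wm82.a4.v1 and Glyma.15G062500.Wm82.a4.v1, and the lowest at Glyma.16G049000.Wm82.a4.v1.

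Glyma.02G083702.Wm82.a4.v1 on chromosome 2, rank 5, had 3554, 1924, 2368 and 1249 FPKM in replicates 1 to 4, where replicate 1 was 2.85-fold above replicate 4. Glyma.11G117600.Wm82.a4.v1 on chromosome 11 went the other way, at 1800, 2014, 2176 and 2779 FPKM. Over the 25 highest loci, which had means from 1121 FPKM upwards, the coefficient of variation over the 4 libraries (CV, the SD over the mean) ran from 2.07% to 70.7% with a median of 19.2%. It was under 10% at 8 of the 25 and over 40% at 7 of them. At 1000 FPKM or more, 18 loci were found in every WT library and 40 in at least 1.

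**Figure D3:**
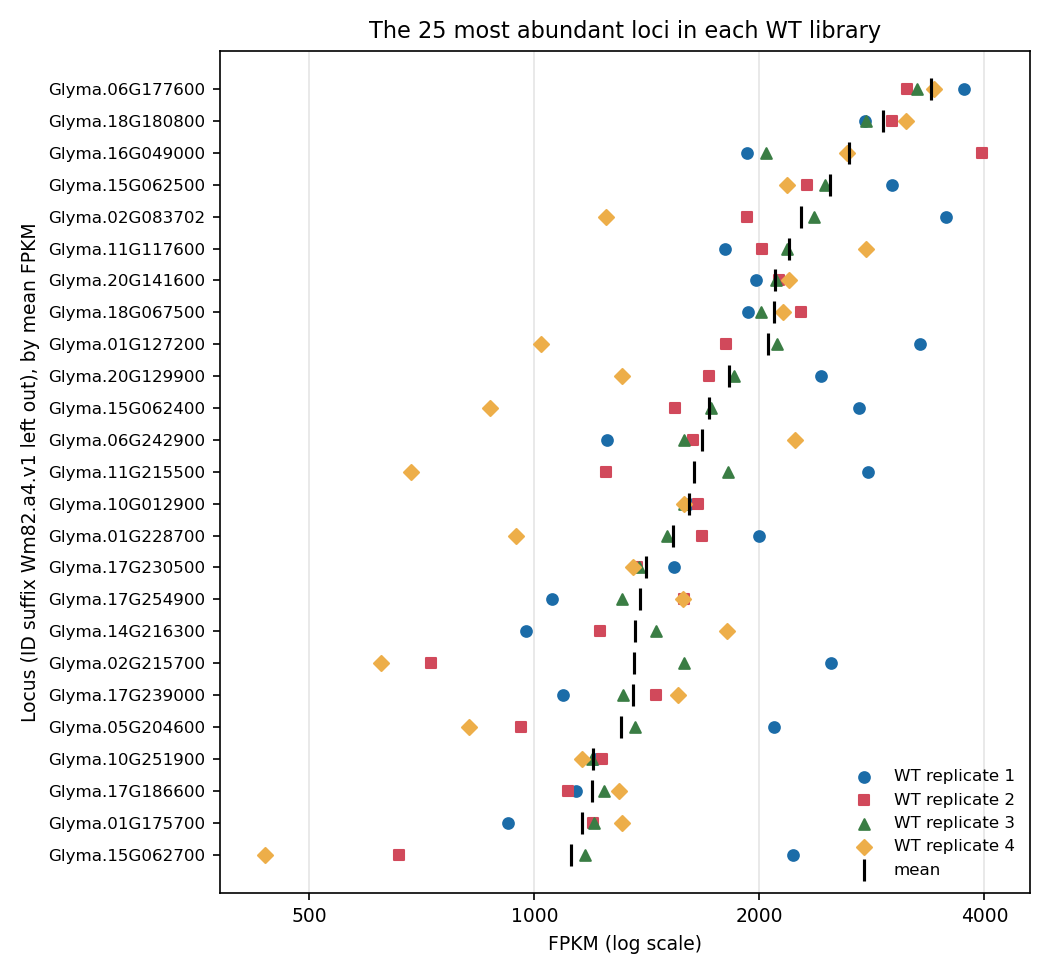
FPKM (log scale) of the 25 loci with the highest mean, with 1 marker for each WT library and a black bar at the mean. At Glyma.10G012900 the 4 libraries lie between 1584 and 1656 FPKM, while at Glyma.15G062700 they spread from 437 to 2217 FPKM.

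The steadiest of the 200 loci differed between libraries by a few percent. The lowest CV was 2.07%, at Glyma.10G012900.Wm82.a4.v1 on chromosome 10, with 1611, 1656, 1584 and 1588 FPKM in replicates 1 to 4. Glyma.12G024700.Wm82.a4.v1 on chromosome 12 followed at 2.49%, with 621, 649, 613 and 624 FPKM, and Glyma.10G251900.Wm82.a4.v1 on chromosome 10 at 2.61%, with 1209, 1231, 1194 and 1157 FPKM. None of these loci was highest in replicate 1. The 10 lowest CVs reached 4.27%, with means between 238 and 2100 FPKM, and their highest library was replicate 2 at 6 loci and replicate 4 at 4. Of all 200 loci, 80 were highest in replicate 1, 48 in replicate 2 and 68 in replicate 4.

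The most variable of the 200 differed 3.61-fold to 7.32-fold between their highest and lowest library over the 10 highest CVs. The highest CV was 80.2%, at Glyma.08G339500.Wm82.a4.v1 on chromosome 8, with 1852, 397, 950 and 321 FPKM in replicates 1 to 4. Next was Glyma.05G126800.Wm82.a4.v1 on chromosome 5, at 73.6%, with 136, 302, 636 and 998 FPKM. Glyma.13G029200.Wm82.a4.v1 on chromosome 13 had a CV of 72.3%, with 530, 118, 325 and 118 FPKM. Replicate 1 was the highest library at 9 of these 10 loci and replicate 4 was the lowest at 8. The exception in which replicate 1 was lowest and replicate 4 highest was Glyma.05G126800.Wm82.a4.v1. Over all 200 loci, replicate 1 was the highest library at 80 (40%) but the lowest at 91 (45.5%), and replicate 4 was the lowest at 75 (37.5%). A high value in 1 library raises the CV, so the choice by CV bears on the counts for the 10.

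Over all 200 loci the median CV was 23.6% (interquartile range 14.3% to 34.8%), whereas counting error alone would give a median of 0.984% at their read numbers. The 800 loci at ranks 201 to 1000 had a median CV of 16.2% (8.80% to 28.2%), the 4000 at ranks 1001 to 5000 one of 13.6%, and the 5000 at ranks 5001 to 10000 one of 13.2%. The median CV was 15.9% at ranks 10001 to 20000 and 30.2% below that, where counting error alone would give 14.4%. A difference of 2-fold or more between the highest and lowest library was found at 72 of the 200 loci (36%) and at 182 of the 800 at ranks 201 to 1000 (22.8%). Within 1.3-fold in all 4 libraries were 36 of the 200. A locus that is high in 1 library has both a higher mean and a higher CV, so the choice by mean bears on these figures.

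**Figure D4:**
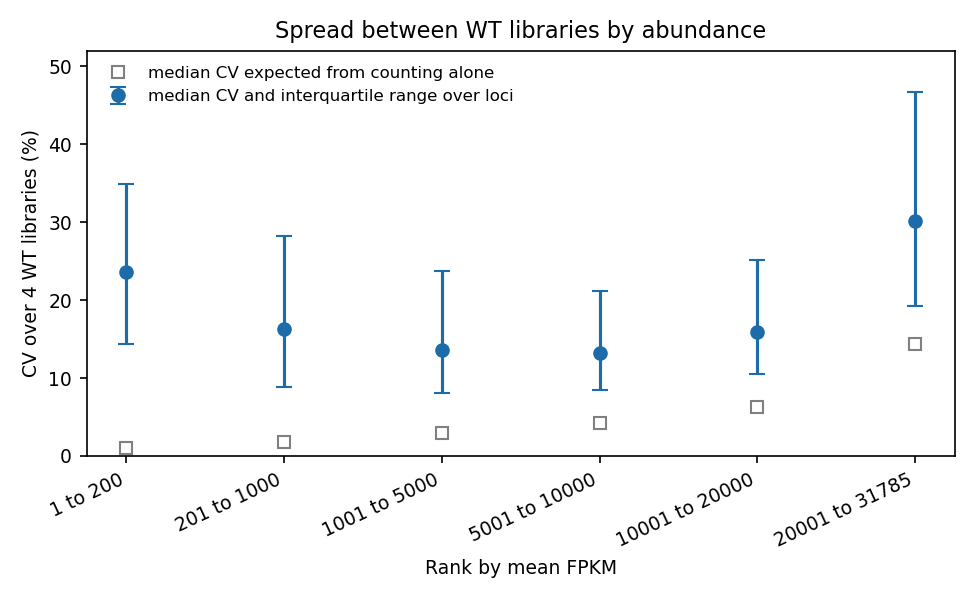
CV over the 4 WT libraries (%) by rank of mean FPKM; the blue points are medians over the loci of each rank range, the bars are interquartile ranges over loci, and the grey squares are the median CV that counting alone would give. The median falls with rank to 13.2% at ranks 5001 to 10000 and is higher at both ends, with 23.6% for the 200 loci.

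To read levels in a library that the choice had not used, 200 loci were chosen on 3 libraries and their level was read in the library left out. The median difference from the mean of the 3, without its sign, was 0.49 on the log2 scale in replicate 1, 0.22 in replicate 2, 0.10 in replicate 3 and 0.45 in replicate 4. For ranks 201 to 1000 by the same 3 libraries it was 0.26, 0.22, 0.10 and 0.24. The 200 loci lay farther off this mean than the next 800 in replicates 1 and 4. In replicates 2 and 3 the values of both sets were the same at 2 decimals. The mean of the 3 libraries was itself used for the choice, so the choice still bears on these differences. The median signed difference was −0.15, −0.03, −0.03 and −0.12 in replicates 1 to 4.

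Replicates 1 and 4 were the extremes at most of the 200 loci. At 68 loci (34%) replicate 1 was the highest library and replicate 4 the lowest, and at 61 loci (30.5%) replicate 4 was the highest and replicate 1 the lowest. Together that was 64.5% of the 200, against 47.6% of ranks 201 to 1000 and 43.6% of ranks 1001 to 5000. Among the 27693 loci with a mean of at least 1 FPKM, 15.3% had replicate 1 highest and replicate 4 lowest, and 21.8% had the reverse. Replicate 3 was the highest library at 4 of the 200 loci and the lowest at 12, and replicate 2 was the highest at 48 and the lowest at 22. What set replicates 1 and 4 apart is not given in the labels and was not tested.

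The 68 loci that were highest in replicate 1 and lowest in replicate 4 had a median ratio of 2.33 between these libraries, and at 45 of them it was at least 2-fold. They held 10.9%, 6.75%, 7.67% and 4.67% of summed FPKM in replicates 1 to 4. The 61 loci with the reverse order had a median ratio of 1.63, with 17 at 2-fold or more, and held 4.67%, 6.23%, 6.12% and 7.79%. Both sets were picked by these very values, which are given as a description of size only. The ratio reached 5.77 at Glyma.08G339500.Wm82.a4.v1 in the first set and 7.32 at Glyma.05G126800.Wm82.a4.v1 in the second.

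**Figure D5:**
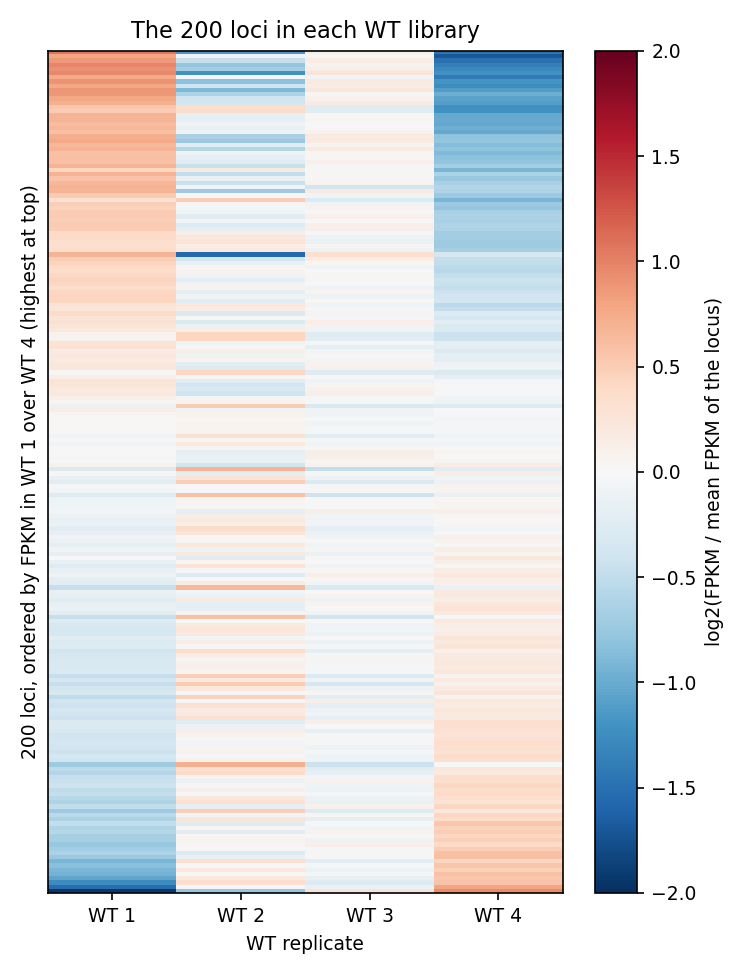
log2 of FPKM over the locus mean (colour) for the 200 loci (rows) in the 4 WT libraries (columns), with rows ordered by the ratio of replicate 1 to replicate 4. Replicates 1 and 4 carry the deepest colours and replicate 3 is close to the mean at most loci.

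Rank correlations between libraries depended on the range of levels they covered. Within the 200, the Spearman rho between libraries had a median of 0.784 and ran from 0.431 between replicates 1 and 4 to 0.873 between replicates 1 and 3. Over all listed loci, the median was 0.966, the lowest 0.927 between replicates 1 and 4 and the highest 0.973 between replicates 1 and 3. Kendall's W over the 4 libraries, which is 1 for identical orders, was 0.796 over the 200 and 0.969 over all listed loci. The 200 span a narrower range of levels than the whole list, which lowers a rank correlation. The median rho between libraries was 0.617 at ranks 201 to 1000, 0.757 at ranks 1001 to 5000 and 0.580 at ranks 5001 to 10000. It was 0.714 at ranks 10001 to 20000 and 0.796 below that. The 0.784 of the 200 was above all but the last of these, but the range of levels differed. Means ran from 230 to 3393 FPKM in the 200, against 88.95 to 230 FPKM at ranks 201 to 1000. Each range from rank 201 to rank 20000 spans a smaller ratio of levels than the 200, which lowers its rho. The comparison therefore does not show that the order is steadier in the 200. All of these correlations are descriptions across loci of the same libraries.

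Of the 200 loci, 121 (60.5%) were inside the top 200 of each of the 4 libraries. A further 45 were inside in 3 libraries, 31 in 2 and 3 in 1. The number inside was 156 in replicate 1, 177 in replicate 2, 186 in replicate 3 and 165 in replicate 4. All of the 50 highest by mean were inside in each library, as were 95 of the 100 highest, against 26 of the 100 loci at ranks 101 to 200. The 4 top-200 lists together named 297 loci, of which 97 lay outside the 200 by mean. Pairs of libraries shared 125 loci (replicates 1 and 4) to 166 (replicates 1 and 3). Of the 10 highest loci of a library, 3 were common to all 4 (30%), of the 25 highest 14 (56%), of the 50 highest 30 (60%), of the 100 highest 66 (66%) and of the 1000 highest 677 (67.7%).

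When 200 loci were chosen on 3 libraries, 147 were inside the top 200 of replicate 1 when it was left out, 164 of replicate 2, 182 of replicate 3 and 150 of replicate 4. They held 21.5%, 20.2%, 20.2% and 18.9% of summed FPKM in the library left out, where that library's own top 200 held 22.6%, 20.8%, 20.3% and 19.9%. Inside the top 500 of the library left out were 192, 195, 200 and 186 of them. Most of the loci outside the top 200 of the library left out were thus still inside its top 500.

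Some loci fell far in 1 library. The lowest place of any of the 200 was rank 1306, for Glyma.11G070600.Wm82.a4.v1 on chromosome 11 in replicate 4. This locus had 413, 225, 241 and 73.8 FPKM in replicates 1 to 4, with ranks of 103, 220, 185 and 1306. Glyma.07G205400.Wm82.a4.v1 on chromosome 7 fell to rank 821 in replicate 2, with 481, 101, 378 and 237 FPKM. The lowest place of any of the 200 was rank 885, 821, 297 and 1306 in replicates 1 to 4. Beyond rank 400 lay 11 of the 200 in replicate 1, 2 in replicate 2, 0 in replicate 3 and 7 in replicate 4. Never below rank 400 in any library were 181 of the 200.

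The limit at rank 200 cuts a dense part of the list. Just inside it were Glyma.11G119500.Wm82.a4.v1 at 231 ± 22.9 FPKM, Glyma.08G105100.Wm82.a4.v1 at 231 ± 9.97 FPKM and Glyma.15G273600.Wm82.a4.v1 at 230.3 ± 52.2 FPKM (SD, n = 4 each). Just outside were Glyma.02G001100.Wm82.a4.v1 at 230.1 ± 132 FPKM, Glyma.18G054100.Wm82.a4.v1 at 229.8 ± 46.3 FPKM and Glyma.05G128000.Wm82.a4.v1 at 229.6 ± 122 FPKM (SD, n = 4 each). The gap of 0.172 FPKM between ranks 200 and 201 is far below these SDs, and 29 loci inside and 42 outside had means within 10% of that at rank 200.

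The 200 loci lay on all 20 chromosomes, with 1 on a scaffold and 0 among the 734 loci numbered outside the annotation. Chromosome 17 held 18 of them, 1.17% of its 1544 listed loci, and chromosome 13 held 7 of 2188, or 0.320%. Chromosomes 6 and 11 held 14 each. Chromosome 17 had 9% of the 200 and 4.86% of the listed loci, and 5.73% of the summed mean FPKM. These are counts without a test.

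A few of the 200 were next to each other in the list, although loci outside the list may lie between them. In 9 pairs of successive listed loci on a chromosome both were members, which involved 17 loci (8.5%) in 8 stretches and 2.90% ± 0.592 of summed FPKM (SD, n = 4). The 200 are 0.629% of all listed loci, and the number of such pairs expected at random places was not computed. The one stretch of 3 loci was on chromosome 15 and held Glyma.15G062400.Wm82.a4.v1, Glyma.15G062500.Wm82.a4.v1 and Glyma.15G062700.Wm82.a4.v1, whose lengths were 766, 835 and 882 bases. Their FPKM summed to 7947, 4515, 5347 and 3490 in replicates 1 to 4. All 3 were highest in replicate 1 and lowest in replicate 4, but by unlike amounts. Glyma.15G062400.Wm82.a4.v1 had 2718, 1543, 1726 and 873 FPKM, and Glyma.15G062700.Wm82.a4.v1 had 2217, 659, 1171 and 437 FPKM, while the values of Glyma.15G062500.Wm82.a4.v1 given above stayed within 1.38-fold.

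The loci of 6 of the 9 pairs shared both their highest and their lowest library. Both pairs of the chromosome 15 stretch are among the 6, and Glyma.15G062500.Wm82.a4.v1 is in each of them. Of all 200 loci, 34% were highest in replicate 1 and lowest in replicate 4, and 30.5% were the reverse. Shared extremes are therefore common among the 200 whatever their place, and the count was not tested. Glyma.02G083600.Wm82.a4.v1 and Glyma.02G083702.Wm82.a4.v1, of 216 and 241 bases, were both highest in replicate 1, the first of them with 992, 431, 623 and 392 FPKM in replicates 1 to 4. The pair Glyma.07G251200.Wm82.a4.v1 and Glyma.07G251300.Wm82.a4.v1 went the other way, with sums of 677, 980, 940 and 1332 FPKM. At Glyma.14G092800.Wm82.a4.v1 and Glyma.14G093100.Wm82.a4.v1 the order was opposite between neighbours, with 399, 544, 587 and 776 FPKM at the first and 416, 302, 280 and 178 FPKM at the second. The treatment of reads shared between similar copies is not given in the sources used here, so the split between neighbouring loci of like sequence is uncertain, and whether these neighbours are copies was not examined.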

How the data were processed

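Per the labels' protocols, Trizol was used for extraction and the VAHTS Universal V6 kit for library construction. HTSeq 0.6.0, HISAT2 2.1.0, Bowtie2 2.2.3, TopHat2 and CASAVA are named, with no roles, per the submitters' processing notes. For the genome build and strand setting, the sources used here give nothing. The deposited values are FPKM computed by the authors, and 1 row without a name or value was left out.

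FPKM is proportional to reads over length times the library total. Totals were fitted, and the smallest whole length that gave whole reads in all 8 columns was taken for each locus; the OX5 columns served only for this. It was found for 100% of loci, within 0.0173 reads of a whole number. After values were changed by up to 2%, 0% were solved at that length or a shorter one. From the WT columns alone, 95.8% of lengths were the same. On reads simulated for these libraries over 31775 loci, 99.7% had every count exact. The simulation took the recovered lengths and totals as true, so it cannot show an error already in them. The CVs expected from reads cover counting error only, while the ± of a share of reads is the SD over libraries.

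Loci were ordered by mean FPKM with no filter beyond the deposited list, and no test between groups was run. A chi-square served only to look for a library deposited again. Named loci were drawn from the 25 highest, the 10 highest and 10 lowest CVs and the 3 on each side of rank 200; others (extremes of length, reads or rank, neighbours) were chosen after their values were seen. The 15 gene lists and the cell type markers could not be matched. Loci and lists were chosen with earlier results of these data known. Alternatives were another order of loci (pseudocounts of 1 and 0.1), scaling, filters, reads and leaving out each library. Computation used numba 0.67.0, matplotlib 3.10.9, pandas 2.3.3, scipy 1.17.1 and numpy 2.4.6 under Python 3.11.15.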

Additional observations from a re-analysis of the deposited data

Results flagged for a closer look

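Among 57 groups of 4 values examined, 3 had 1 library far from the other 3. Chance gives about 1 in 20, and 3 of 57 is near that share. Named loci made up 46 of the groups and were picked by these same values, so the chance share need not hold for them. Among all 200 loci, 5 stood out. WT replicate 1 had 872 loci at 100 FPKM or more, against 819 to 828 in the other 3 WT libraries. It needed 12677 loci to hold 90% of summed FPKM, against 13169 to 13260. At Glyma.17G230500.Wm82.a4.v1, rank 16 by mean FPKM, replicate 1 had 1536 FPKM, against 1354 to 1380 FPKM in the others. All 3 concern replicate 1, and they are not independent of each other.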

How the results depend on the processing

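The share of the 200 loci (20.5%) was 16.5% when loci were chosen and summed by reads, 15.6% for 100 loci and 29.5% for 500. The range of 2.96 on the log10 scale was 5.67 from the smallest value above 0 to the largest and 2.26 over loci with a mean of at least 1 FPKM. The median Spearman rho of 0.966 was 0.906 over loci with a mean of at least 10 FPKM, a narrower range. Apart from the median CV of the 200, the other alternatives that kept all 4 libraries left the results within the spread between libraries, or a count within 1.5 times. The median CV of the 200 is 1 value over the 4 libraries and has no such spread. It was 22.9% to 23.6% under these alternatives, against 23.6%. By reads, 2360 loci held 50% of the sum, against 1867 ± 126 by FPKM (SD, n = 4). That count lay beyond the spread between libraries and was kept only by the bound of 1.5 times. Lengths under 300 bases were left out as an alternative chosen after seeing the data, with a share of 20.1%.

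Leaving out 1 library gave shares of 20.1% to 21.0%, 1838 to 1929 loci for 50% of summed FPKM, ranges of 2.97 to 3.01 and a median rho of 0.953 to 0.969. The loci inside the top 200 of each remaining library numbered 121 to 143, which can only rise with fewer libraries to meet for a given list. The median CV of the 200, 23.6%, was 17.2% without replicate 1, 19.1% without replicate 4 and 28.3% without replicate 3. No paired analysis was possible because the 4 libraries form 1 group with no other to pair it with. Depth limits the low end of the listed loci: below rank 20000 the median locus had 48.3 reads per library.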
